A study of Rattus norvegicus with 141 samples.

Results

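The comparison set 8 livers of male rats given microplastics at 5 mg/kg against 8 livers of male rats given vehicle. These 16 libraries were chosen by their labels (tissue, sex and dose group) out of 141 libraries from 3 tissues, of which 46 were from liver. All animals were adult Sprague-Dawley rats labelled WT and were kept on a standard chow. The polymer, particle size, route and duration are not given in the labels used here. Each of these male groups held 2 libraries of batch 1, 4 of batch 2 and 2 of batch 3, so batch and dose were balanced. The labels do not say that the libraries came from separate animals, so a p-value here speaks only of the spread among these libraries, which may be technical. Each library came from several frozen pieces ground together, and per the labels' protocols the homogeniser was taken apart for cleaning only between treatments, with rinses between samples of 1 treatment. Liver libraries of females given 5 mg/kg (8) or vehicle (8), and of males given 50 mg/kg (8), served as points of comparison. Each of these female groups held 4 libraries of batch 1, 4 of batch 2 and 0 of batch 3. Comparisons of the sexes therefore involve groups of unlike batch make-up.

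The liver takes up what the gut absorbs, and hepatocytes clear foreign compounds with cytochrome P450 enzymes and then with conjugating enzymes that attach glucuronic acid, sulphate or glutathione. Hepatocytes also make most plasma proteins, bile acids and urea, and they are rich in mitochondria. The respiratory chain of mitochondria is built from a few subunits encoded by mitochondrial DNA and many encoded in the nucleus, which are made on cytosolic ribosomes and imported.

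Total estimated counts were 7300660 to 12910300 (median 10922100) in the 5 mg/kg livers and 9353310 to 20743100 (median 10493900) in the vehicle livers. Hepatocyte markers summed to 121258 to 151567 CPM (counts scaled to library size) at 5 mg/kg and 115735 to 160560 CPM with vehicle, so the tissue matched its label. Pancreatic acinar markers summed to at most 0.230 CPM at 5 mg/kg and 0.307 CPM with vehicle. Y-linked genes took 76.0 to 131 CPM at 5 mg/kg and 84.0 to 133 CPM with vehicle, against at most 0.295 CPM in any female group.

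A pair of vehicle libraries stood apart from the rest. On the first principal component of log2 CPM, 5 mg/kg replicate 7 lay at 37.0, vehicle replicates 5 and 7 at 74.4 and 80.8, and the other 13 libraries between -46.5 and 28.3. All 3 belonged to batch 2. Their listed cytosolic ribosomal protein genes took 0.620% of counts in 5 mg/kg replicate 7, and 0.842% and 0.878% in vehicle replicates 5 and 7. Gene counts, shares of counts and several gene list summaries are therefore also given without vehicle replicates 5 and 7. This choice was made after seeing the data. Single-gene ratios are not given without them.

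**Figure D1:**
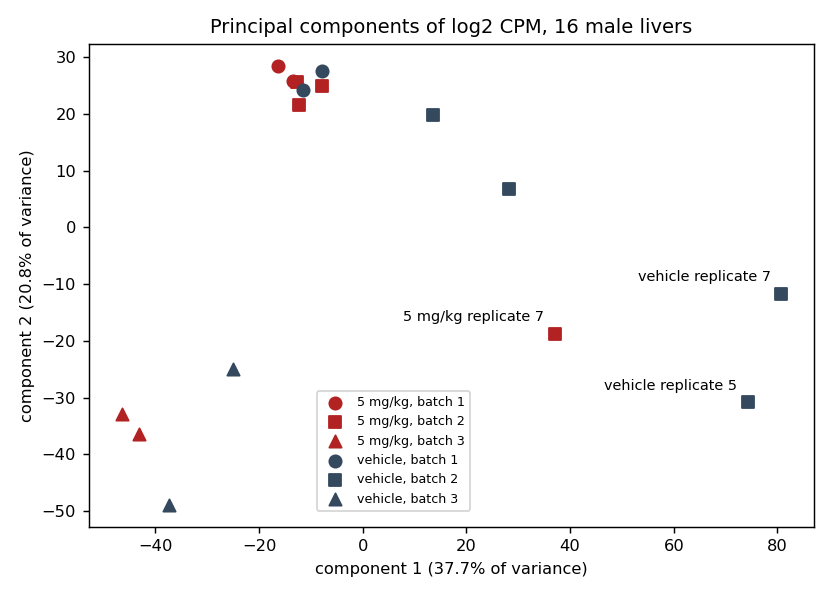
First and second principal components of log2 CPM over all tested genes for the 8 livers given 5 mg/kg and the 8 given vehicle (1 point a library, shape by batch, axes in component units with 37.7% and 20.8% of variance). Vehicle replicates 5 and 7 lie at the right end at 74.4 and 80.8, and the 4 libraries of batch 3 lie at the lower left.

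No single gene passed the test at 5 mg/kg. Of 13130 genes tested with edgeR's quasi-likelihood test, 0 (0%) had an adjusted p under 0.05, and the smallest adjusted p was 0.0922, shared by 325 genes. An unadjusted p under 0.05 was found for 3187 genes (24.3%), 1240 of them higher (9.44%) and 1947 lower (14.8%) at 5 mg/kg. The median size of change over all genes was 0.21 on the log2 scale, and 0 genes (0%) separated the groups without overlap. Other tools made calls on the same libraries. DESeq2 called 601 genes (104 higher, 497 lower) and limma voom with quality weights called 574 (149 higher, 425 lower). Without vehicle replicates 5 and 7, edgeR called 0 genes, and the unadjusted count was 789 of 13115, with 254 higher (1.94%) and 535 lower (4.08%). Within batch 1 and within batch 2 edgeR also called 0 genes, with 345 of 13256 unadjusted in batch 1 and 3193 of 12860 in batch 2. Genes were not counted within batch 3. The unadjusted count over all 16 libraries depended on the model. Of 13130 genes it was 551 with 3 surrogate variables and 574 when the ribosomal protein share was added to the model. It was 1723 when batch was left out, and edgeR called 0 genes in each of these fits. None of the genes in the next paragraphs is therefore called by edgeR for 5 mg/kg against vehicle, and their values are given as measured.

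Among the 12 lower genes with the smallest p, Vamp3, a SNARE protein of recycling endosomes, came first. It measured 8.44 to 18.8 CPM (median 14.2) in the 5 mg/kg livers and 9.57 to 31.2 CPM (median 19.9) in the vehicle livers. All 8 treated libraries lay below the vehicle median, but the ranges overlapped, and the 4 vehicle libraries of batches 1 and 3 lay within the treated range. Its log2 ratio was -0.52 ± 0.11 (SE; edgeR unadjusted p = 1.27e-05, adjusted p = 0.0922). Within batches 1, 2 and 3 it was -0.49, -0.64 and -0.27. Amacr, a racemase needed to break down branched fatty acids and to make bile acids, had the largest ratio of the 12. It measured 257 to 441 CPM (median 392) at 5 mg/kg and 292 to 934 CPM (median 589) with vehicle, a log2 ratio of -0.81 ± 0.20 (adjusted p = 0.0922). Vehicle replicate 8 alone reached into the treated range. Hat1, a histone acetyltransferase, measured 4.53 to 11.5 CPM (median 9.07) at 5 mg/kg and 6.97 to 16.4 CPM (median 11.2) with vehicle, a ratio of -0.47 ± 0.11. Bbs5, a subunit of the BBSome that sorts membrane proteins of cilia, had a ratio of -0.72 ± 0.17, with medians of 2.24 CPM and 4.02 CPM in the treated and the vehicle livers.

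The other lower genes of this set were of mixed function. Tmem11 of the mitochondrial inner membrane had a log2 ratio of -0.76 ± 0.19, and Uqcc3, an assembly factor of respiratory complex III, one of -0.71 ± 0.18. Nmd3, which carries the large ribosomal subunit out of the nucleus, had a ratio of -0.57 ± 0.14. Nit2, an omega-amidase, measured 111 to 202 CPM (median 164) at 5 mg/kg and 133 to 428 CPM (median 234) with vehicle. Cnih1, which helps cargo leave the endoplasmic reticulum, had a ratio of -0.47 ± 0.12 and Tiprl, a regulator of protein phosphatases, one of -0.61 ± 0.14. Ginm1 (-0.57 ± 0.14) and Thap6 (-0.45 ± 0.11) completed the set. All 12 had negative ratios in each of the 3 batches. They were picked for small p over these same libraries, which favours like signs, so this is no separate support.

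On the higher side, Srsf4, a splicing factor of the SR family, had the smallest p of 12 genes. It measured 73.6 to 120 CPM (median 95.2) in the 5 mg/kg livers and 41.6 to 98.6 CPM (median 59.6) in the vehicle livers. All 8 treated libraries lay above the vehicle median, and vehicle replicates 2, 6 and 8 lay within the treated range. The log2 ratio was 0.60 ± 0.13 (adjusted p = 0.0922), and 0.29, 0.98 and 0.17 within batches 1, 2 and 3. Atxn2, a cytoplasmic RNA-binding protein, measured 52.1 to 99.6 CPM (median 81.1) at 5 mg/kg and 33.8 to 72.4 CPM (median 57.3) with vehicle, a ratio of 0.57 ± 0.13. Tcof1, a nucleolar factor of ribosomal RNA synthesis, had a ratio of 0.53 ± 0.12. Scaf4, which binds the tail of RNA polymerase II, had a ratio of 0.54 ± 0.14, and Rbbp6, a ubiquitin ligase and polyadenylation factor, one of 0.45 ± 0.12.

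The remaining higher genes were of mixed function. Heyl, a transcriptional repressor downstream of Notch, had the largest ratio at 0.87 ± 0.23, from low levels of 1.51 to 4.16 CPM at 5 mg/kg and 0.804 to 2.82 CPM with vehicle. Cog1, part of a Golgi tethering complex, had a ratio of 0.47 ± 0.12, and Klhl12, a substrate adaptor of a cullin ubiquitin ligase, one of 0.43 ± 0.11. Wwc1, a scaffold of the Hippo pathway, had a ratio of 0.48 ± 0.13. Paxip1, a DNA damage response protein, had a ratio of 0.40 ± 0.10. Nrde2 (0.44 ± 0.12) and Slfnl1 (0.55 ± 0.14) made up the rest. For all 12, at least 7 of the 8 treated libraries lay above the vehicle median. Picking by small p from the same libraries favours this, so it is no separate support.

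**Figure D2:**
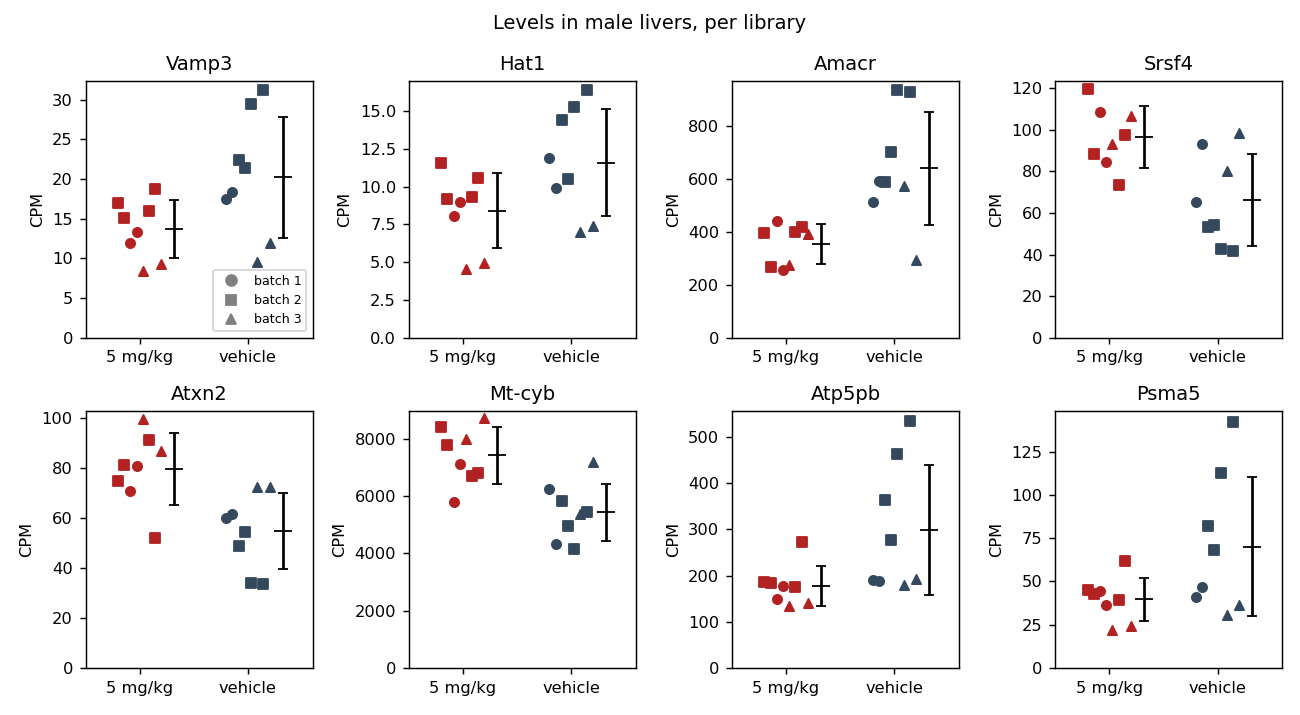
CPM of 8 genes in each male liver given 5 mg/kg (left of each panel, n = 8) or vehicle (right, n = 8), with shape for batch and a bar for the mean and SD. The groups overlap in every panel, and for Vamp3, Atp5pb and Psma5 the highest values are vehicle libraries of batch 2.

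The share of counts from mitochondrial DNA was higher at 5 mg/kg. Its 13 protein-coding genes took 8.08 to 10.9% of counts (median 9.35%) in the 5 mg/kg livers and 5.60 to 8.35% (median 7.36%) in the vehicle livers. All 8 treated libraries exceeded the vehicle median, and 7 of 8 exceeded the highest vehicle library. The means were 9.36 ± 0.935% at 5 mg/kg and 7.08 ± 1.04% with vehicle (SD, n = 8 each), 2.28 percentage points apart. A two-sided exact permutation test within batches gave p = 0.000794, the smallest that its 2520 regroupings allow, and adjusted p = 0.00397 over 5 library measures that were chosen after seeing the data. Differences within batches 1, 2 and 3 were 1.13, 3.33 and 1.33 points. Without vehicle replicates 5 and 7 the difference was 1.70 points (exact permutation p = 0.00185). In bulk tissue, fewer cells of a type and less RNA per cell cannot be told apart.

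Single genes of mitochondrial DNA did not pass the edgeR test. All 13 had positive log2 ratios, with a median of 0.35 against 0.03 for all tested genes, and 7 of 13 had an unadjusted p under 0.05 in the higher direction (background for higher genes 9.44%). Mt-cyb, the cytochrome b of complex III, measured 5809 to 8740 CPM (median 7469) at 5 mg/kg and 4165 to 7184 CPM (median 5417) with vehicle, a ratio of 0.45 ± 0.14 (adjusted p = 0.0922). The ratio was 0.44 ± 0.15 for the complex I subunit gene Mt-nd4, with levels of 7864 to 11264 CPM at 5 mg/kg and 5836 to 9010 CPM with vehicle. Another complex I subunit gene, Mt-nd2, had a ratio of 0.41 ± 0.15. For each of these genes all 8 treated libraries lay above the vehicle median. Mt-co1, the most abundant of the 13 by CPM, had a ratio of 0.22 ± 0.11, and Mt-nd3 had one of 0.02 ± 0.13. Without vehicle replicates 5 and 7, 5 of 13 genes had an unadjusted p under 0.05 in the higher direction (background 1.94%) and the median was 0.29.

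**Figure D3:**
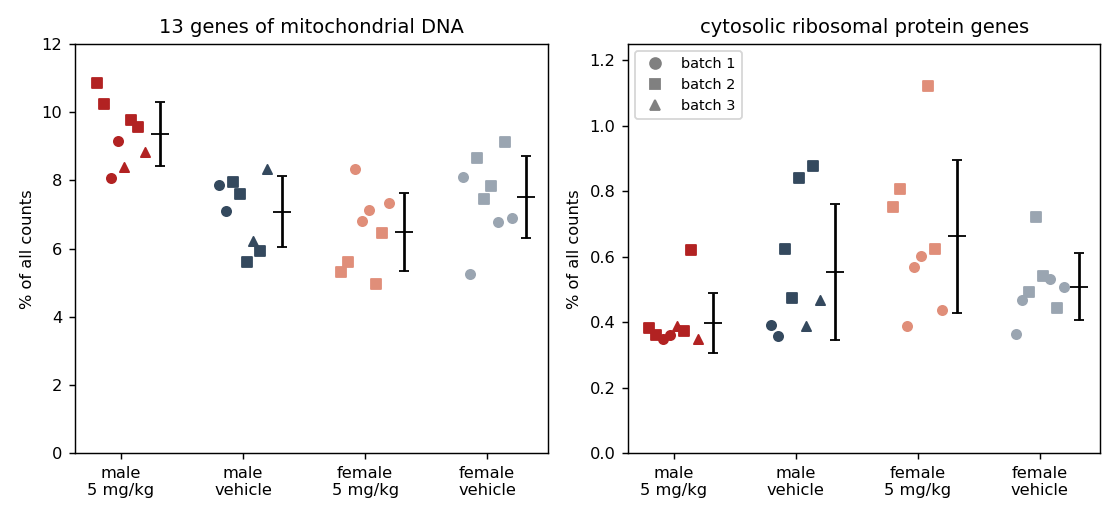
Percentage of all counts from the 13 genes of mitochondrial DNA (left panel) and from the listed cytosolic ribosomal protein genes (right panel) in each liver library of males and females, with shape for batch and a bar for the mean and SD (n = 8 a group). The male 5 mg/kg livers lie at 8.08 to 10.9% in the left panel against 5.60 to 8.35% for male vehicle, and the female 5 mg/kg livers at 4.97 to 8.33% against 5.27 to 9.11% for female vehicle.

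Nuclear genes of the respiratory chain had ratios of the opposite sign. All 32 listed subunit genes that were tested had negative log2 ratios, 26 of them with an unadjusted p under 0.05 (background for lower genes 14.8%), with a median of -0.49. None was called by edgeR, while DESeq2 called 15 and limma voom 17. Over all 13130 tested genes DESeq2 called 601 (497 lower) and limma voom 574 (425 lower). Atp5pb, a stator subunit of ATP synthase, measured 133 to 273 CPM (median 176) at 5 mg/kg and 180 to 536 CPM (median 236) with vehicle, a ratio of -0.66 ± 0.18 (adjusted p = 0.0922). The high vehicle values came from batch 2, where the 4 libraries had 278 to 536 CPM, while the vehicle libraries of batches 1 and 3 had 180 to 193 CPM. Sdhd, a membrane anchor of complex II, had a ratio of -0.63 ± 0.17, and Ndufa2 of complex I one of -0.77 ± 0.22. Cox4i1 of complex IV measured 247 to 460 CPM at 5 mg/kg and 300 to 995 CPM with vehicle, a ratio of -0.69 ± 0.22. Members at the other end included Sdha, the catalytic subunit of complex II, at -0.05 ± 0.08, and Ndufs1, the largest subunit of complex I, at -0.07 ± 0.09.

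These ratios were largest in batch 2, the batch of vehicle replicates 5 and 7. The median over the 32 genes was -0.17 within batch 1, -0.72 within batch 2 and -0.26 within batch 3. All 32 were also negative without vehicle replicates 5 and 7, where 9 had an unadjusted p under 0.05 (background for lower genes 4.08%) and the median was -0.29. With each library's ribosomal protein share added as a covariate the median was -0.15 and 31 of 32 were negative.

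Genes of cytosolic ribosomal proteins, the structural components of the translating ribosome, had negative ratios too. All 28 tested gene entries had negative ratios, 23 with an unadjusted p under 0.05 (background for lower genes 14.8%), and the median was -0.46. With 3 surrogate variables in the model the median was 0.02, with 17 of 28 positive. Rps18 measured 105 to 270 CPM (median 138) at 5 mg/kg and 115 to 755 CPM (median 331) with vehicle, a ratio of -0.97 ± 0.33 (adjusted p = 0.0997). Rpl4 had a ratio of -0.76 ± 0.26, with 211 to 504 CPM at 5 mg/kg and 234 to 1281 CPM with vehicle. Ribosomal protein genes have many processed copies in the genome, so the split of reads among copies is uncertain. The listed genes together took 0.350 to 0.620% of counts (median 0.368%) at 5 mg/kg and 0.359 to 0.878% (median 0.472%) with vehicle. This difference of -0.156 points had p = 0.0254 by the exact permutation test within batches and adjusted p = 0.0635, and did not pass. Without vehicle replicates 5 and 7 it was -0.0728 points (exact permutation p = 0.143). With vehicle replicates 5 and 7 left out, 0 of 28 had an unadjusted p under 0.05 and the median was -0.25. Within batch 1 the median was -0.07.

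Proteasome subunit genes had ratios of the same sign. Of 25 tested, 23 had negative ratios and 16 an unadjusted p under 0.05 in the lower direction (background 14.8%), with a median of -0.36. Psma5, a subunit of the outer ring of the catalytic core, measured 21.9 to 61.7 CPM (median 41.1) at 5 mg/kg and 30.4 to 142 CPM (median 57.6) with vehicle, a ratio of -0.71 ± 0.22 (adjusted p = 0.0922). The highest vehicle values, 113 and 142 CPM, were those of replicates 5 and 7. Psmb5, which carries the chymotrypsin-like activity, had a ratio of -0.64 ± 0.21. Subunits of the regulatory cap were split. Psmd14, its deubiquitinase, had a ratio of -0.56 ± 0.19, whereas the scaffold genes Psmd1 and Psmd2 had ratios of 0.07 ± 0.09 and 0.14 ± 0.09. Without vehicle replicates 5 and 7, 2 of 25 had an unadjusted p under 0.05 (background for lower genes 4.08%) and the median was -0.23.

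Conjugating enzymes had mostly negative ratios. Of 36 tested gene entries 32 were negative, 17 had an unadjusted p under 0.05 in the lower direction (background 14.8%), and the median was -0.32. Sult1e1, the oestrogen sulfotransferase, measured 588 to 1061 CPM (median 823) at 5 mg/kg and 873 to 2852 CPM (median 1345) with vehicle, a ratio of -0.73 ± 0.22 (adjusted p = 0.0922). Gsta1, a glutathione transferase, measured 620 to 1054 CPM (median 915) at 5 mg/kg and 636 to 2865 CPM (median 1231) with vehicle, a ratio of -0.62 ± 0.18. In both genes no treated library exceeded the vehicle median. The glucuronosyltransferase gene Ugt2b15 had a ratio of -0.45 ± 0.15. Gstm1, the most abundant by CPM of the glutathione transferases listed, had a ratio of 0.10 ± 0.12. Members of these families resemble one another closely, so reads may be split unevenly among them. Without vehicle replicates 5 and 7, 4 of 36 had an unadjusted p under 0.05 (background for lower genes 4.08%) and the median was -0.18.

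Cytochrome P450 enzymes carry out the oxidations that precede conjugation. Of 31 tested entries for cytochrome P450 families 1 to 3 and their reductase, 1 had an unadjusted p under 0.05 in the lower direction, against a background of 14.8%, and the median was -0.12. That gene was Cyp2c22 (-0.56 ± 0.18; adjusted p = 0.093), at 464 to 1237 CPM at 5 mg/kg and 505 to 2563 CPM with vehicle. Cyp1a1, the classical target of the aryl hydrocarbon receptor, measured 1.99 to 14.5 CPM (median 2.49) at 5 mg/kg and 1.65 to 16.9 CPM (median 2.52) with vehicle, a ratio of -0.04 ± 0.22. Cyp2b1, a target of the constitutive androstane receptor, had a ratio of -0.55 ± 0.33. Cyp2c11, the main male-specific form, had a ratio of -0.27 ± 0.24. Nqo1, a target of NRF2, had one of -0.30 ± 0.16, and Hmox1, haem oxygenase, one of -0.26 ± 0.22. Of 20 tested NRF2 targets, 5 had an unadjusted p under 0.05 in the lower direction (background 14.8%) and 1 in the higher (background 9.44%), and without vehicle replicates 5 and 7 none of the 20 had one. Prdx1, a peroxide-reducing enzyme, had a ratio of -0.43 ± 0.16. None of these values passed.

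Lipid and bile acid genes had list medians near 0, with single genes on both sides. Of 27 tested genes of PPAR alpha and fatty acid oxidation 1 was higher and 5 lower at unadjusted p under 0.05 (background 9.44% and 14.8%), with a median of -0.08. Cyp4a2, a fatty acid hydroxylase, measured 476 to 1695 CPM (median 998) at 5 mg/kg and 232 to 1118 CPM (median 495) with vehicle, a ratio of 0.88 ± 0.32 (adjusted p = 0.108). Its relative Cyp4a1 had a ratio of -0.36 ± 0.19. Fasn, fatty acid synthase, had a ratio of 0.20 ± 0.38, and Thrsp, a lipogenic regulator, one of -0.73 ± 0.28. In bile acid metabolism the nuclear receptor gene Nr0b2 had a ratio of 0.91 ± 0.35, while Cyp7a1, the rate-limiting enzyme of bile acid synthesis, had one of 0.20 ± 0.47. Cyp7a1 spread from 39.4 to 299 CPM at 5 mg/kg and from 45.0 to 167 CPM with vehicle. Cholesterol synthesis genes had a median of -0.07, with Pmvk, an enzyme of the mevalonate pathway, at -0.48 ± 0.15.

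Urea cycle and amino acid genes had 7 of 22 with an unadjusted p under 0.05, all lower (background 14.8%), and a median of -0.22. With vehicle replicates 5 and 7 left out, 0 of 22 had an unadjusted p under 0.05 and the median was -0.15. Slc25a15, the mitochondrial ornithine carrier, measured 84.6 to 108 CPM (median 96.7) at 5 mg/kg and 94.6 to 193 CPM (median 129) with vehicle, a ratio of -0.46 ± 0.14 (adjusted p = 0.0953). Arg1, which releases urea, had a ratio of -0.36 ± 0.16, and Cps1, the entry enzyme of the cycle, one of 0.06 ± 0.12. Among secreted proteins, Ttr, the thyroxine carrier transthyretin, measured 4782 to 8245 CPM (median 7066) at 5 mg/kg and 5181 to 16436 CPM (median 9348) with vehicle, a ratio of -0.54 ± 0.14. Apoa2, an apolipoprotein of HDL, had a ratio of -0.69 ± 0.21. Within batches 1, 2 and 3 the ratio was -0.29, -0.82 and -0.23 for Ttr, and -0.30, -1.17 and -0.09 for Apoa2. Both had the smallest p of 11 tested hepatocyte markers, of which 8 had negative and 3 positive ratios. The median of these markers was -0.12 and the highest ratio 0.42. At unadjusted p under 0.05, 3 were lower and 1 higher (background 14.8% and 9.44%).

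Genes of stress and inflammation had ratios on both sides of 0. Dnajb9, a chaperone of the endoplasmic reticulum, had a ratio of -0.88 ± 0.24 and Hspe1, the mitochondrial co-chaperonin, one of -0.77 ± 0.23 (both adjusted p = 0.0922). The medians were -0.12 over 24 unfolded protein response genes and -0.10 over 12 heat shock genes, the last of which was 0.02 without vehicle replicates 5 and 7. Of 25 interferon response genes 3 were lower at unadjusted p under 0.05, against a background of 14.8%, and Ifi27 had the smallest p with a ratio of -0.75 ± 0.21. Ccl2, a monocyte-attracting chemokine, was near the detection limit, at 0 to 0.766 CPM at 5 mg/kg and 0.220 to 1.32 CPM with vehicle. A2m, the major acute phase protein of the rat, had a ratio of 0.69 ± 0.40, and Hamp, the iron hormone hepcidin, one of -0.45 ± 0.42. The log2 ratio of Hamp was 1.41 within batch 1 and -1.13 within batch 2.

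Markers of other cell types overlapped between the groups. The 16 Kupffer cell and macrophage markers summed to 541 to 918 CPM at 5 mg/kg and 525 to 982 CPM with vehicle, and 0 of 16 had an unadjusted p under 0.05. Sinusoidal endothelial markers summed to 570 to 710 CPM at 5 mg/kg and 376 to 734 CPM with vehicle. Of these 15 genes 12 had positive ratios and 3 an unadjusted p under 0.05 in the higher direction (background 9.44%), with a median of 0.21, which was -0.18 within batch 1 and 0.43 within batch 2. The median was -0.11 with 3 surrogate variables, and 0.07 without vehicle replicates 5 and 7, where 0 of 15 had an unadjusted p under 0.05. The fibrosis gene Col1a1 had a ratio of 0.27 ± 0.26. Haemoglobin and other red cell genes summed to 261 to 869 CPM (median 347) at 5 mg/kg and 450 to 701 CPM (median 576) with vehicle, and 5 mg/kg replicate 8 held the highest value. Their part in the results above was not tested.

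**Figure D4:**
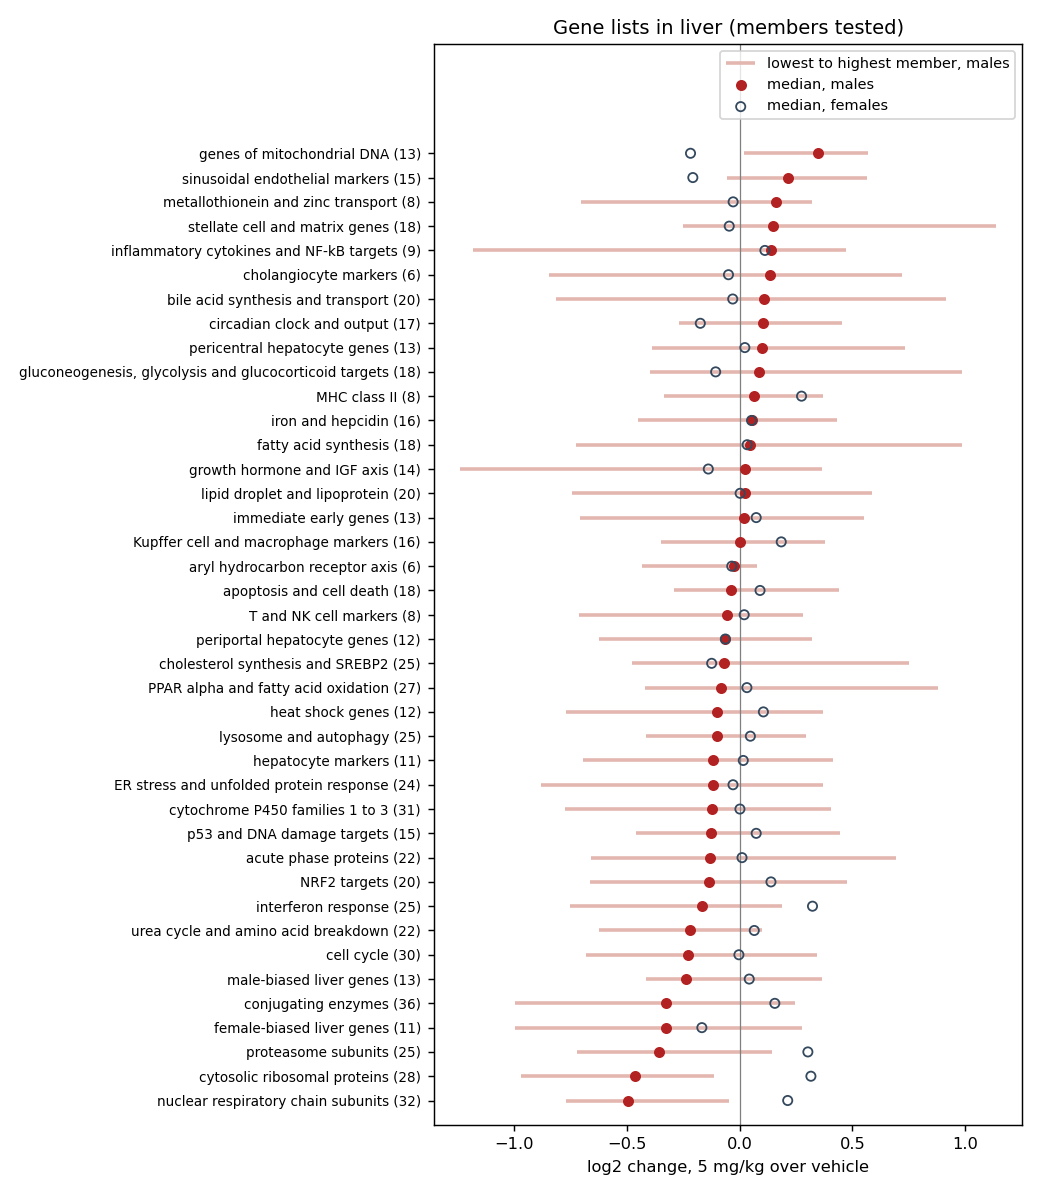
Median log2 change (5 mg/kg over vehicle) of each gene list with at least 5 tested members, in males (filled points, with a line from the lowest to the highest member) and in females (open points). In males the lowest medians are those of nuclear respiratory chain subunits (-0.49) and cytosolic ribosomal proteins (-0.46) and the highest is that of genes of mitochondrial DNA (0.35). In females the same lists have 0.21, 0.32 and -0.22.

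The change at 5 mg/kg differed between males and females for 1030 genes (7.84%), 242 with a higher (1.84%) and 788 with a lower (6%) change in males, by the edgeR test of the difference. Calling by the difference favours genes with opposite signs in the sexes, and all 1030 had them. In females alone 0 genes were called, with 933 at an unadjusted p under 0.05. Hat1 had a difference of -0.78 ± 0.16 (adjusted p = 0.0369), made of -0.47 ± 0.11 in males and 0.31 ± 0.11 in females. In females Hat1 measured 8.42 to 15.2 CPM (median 10.9) at 5 mg/kg and 7.61 to 10.1 CPM (median 9.22) with vehicle. Il7, a lymphocyte growth factor at low level, differed by -1.42, with medians of 1.64 CPM at 5 mg/kg and 2.68 CPM with vehicle in males, and of 1.29 CPM at 5 mg/kg and 0.771 CPM with vehicle in females. Taf11l1 had a difference of -1.45.

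Several of the lists with low medians in males held many of these genes. The male values that set those medians also enter the difference, so these shares are no separate support. Of the 32 nuclear respiratory chain genes 16 had a lower change in males than in females, as did 11 of 25 proteasome genes, 9 of 28 ribosomal protein entries and 5 of 36 conjugating enzyme entries, against a background of 6%. Mt-cyb, Mt-nd4 and Mt-nd2 had a higher change in males, against 1.84%. The difference in the share of mitochondrial DNA counts was 2.28 points in males and -1.02 points in females, 3.30 points apart (exact permutation p = 0.00053, adjusted p = 0.00106 over 2 measures). For the ribosomal protein share the difference was -0.309 points (exact permutation p = 0.00238). Without male vehicle replicates 5 and 7 these differences were 2.71 points (exact permutation p = 0.00146) and -0.226 points (exact permutation p = 0.0105). These 2 measures were the ones with the smallest p of 5 in males, and their male values enter this test too. The regroupings shuffled dose within each sex, so the p-values refer to no dose difference in either sex, not to equal differences. Across all 13130 genes the male and female changes had opposite signs for 10014 and a Pearson r of -0.49, a description across genes, which are not independent replicates.

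The number of genes called for this difference rested on single libraries. It was 0 without vehicle replicates 5 and 7 of the males together, and 0 when the ribosomal protein share was added to the model. It was also 0 when male 5 mg/kg replicate 1, 2 or 6, male vehicle replicate 5 or 7, female 5 mg/kg replicate 1, 2, 5 or 6, or female vehicle replicate 3, 5 or 7 was left out, 1 without female vehicle replicate 1, 376 without female 5 mg/kg replicate 4, and 613 without male vehicle replicate 8. It was 1641 without male vehicle replicate 4 and 1727 without female 5 mg/kg replicate 7. Within batch 1 alone 0 genes were called, and within batch 2 alone 1047, of which 638 were among the 1030.

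**Figure D5:**
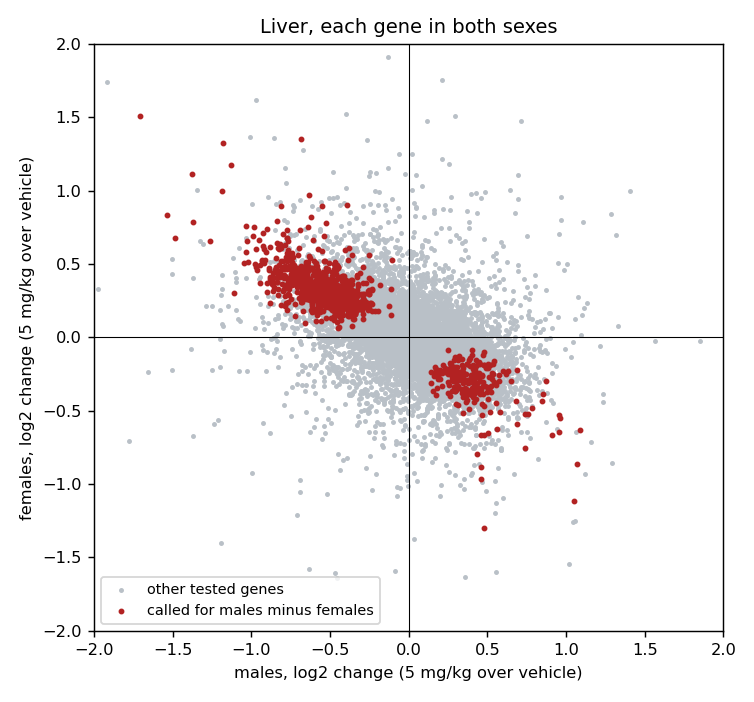
Log2 change at 5 mg/kg over vehicle of each tested gene in males (horizontal axis) and females (vertical axis), with the 1030 genes called for a difference between the sexes in red. The red points lie in the upper left and lower right, and 26 genes fall outside the plotted range of 2 on either side.

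Males given 50 mg/kg were set against males given 5 mg/kg to ask whether the values went on with dose. By edgeR 0 genes (0%) were called, with 2457 at an unadjusted p under 0.05 (18.7%). DESeq2 called 88 and limma voom 161. Without male 50 mg/kg replicate 4 edgeR called 452, and without male 5 mg/kg replicate 4 it called 3. Male 50 mg/kg replicate 6 stood apart, with 1.07% of counts from the listed ribosomal protein genes and 4.01% from mitochondrial DNA. Without it edgeR called 0 genes, and the unadjusted count was 1131 of 13122, whereas it was 3403 without male 50 mg/kg replicate 4. Rin3, an exchange factor for Rab GTPases, measured 8.80 to 25.6 CPM (median 19.4) at 50 mg/kg and 18.0 to 45.7 CPM (median 25.1) at 5 mg/kg, a log2 ratio of -0.70 ± 0.14 (adjusted p = 0.126). Igfals, which carries IGF1 in plasma, had a ratio of -0.44 ± 0.10, and Omd, a small matrix proteoglycan, one of 0.93 ± 0.21. The comparisons of each dose with vehicle share the vehicle libraries. Side by side, the list medians over vehicle were -0.14 at 50 mg/kg and -0.49 at 5 mg/kg for nuclear respiratory chain genes. They were -0.10 at 50 mg/kg and -0.46 at 5 mg/kg for ribosomal proteins, and -0.08 at 50 mg/kg and -0.36 at 5 mg/kg for the proteasome. For genes of mitochondrial DNA they were 0.21 at 50 mg/kg and 0.35 at 5 mg/kg. Without 50 mg/kg replicate 6 the medians at 50 mg/kg were -0.25, -0.29, -0.24 and 0.31 for these lists in the same order. The mitochondrial DNA share spanned 4.01 to 10.4% (median 8.44%) at 50 mg/kg and 8.08 to 10.9% (median 9.35%) at 5 mg/kg.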

How the data were processed

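Polyadenylated RNA of liver was sequenced, and the authors deposited 1 table of estimated counts per gene (expected counts, 9.47% of them fractional) with 46 liver columns and 30562 genes, 4380 of them without a symbol. The submitters' processing notes name STAR 2.7.11b, Salmon 1.10.3, UMI-tools 1.1.5, Trim Galore 0.6.10, cutadapt 4.9, MultiQC 1.28 and FastQC 0.12.1, and the build mRatBN7.2. Nothing used here states their settings, the annotation release, the handling of strand or whether duplicates were removed by molecular identifier, so overlapping and antisense genes may share reads.

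The counts were rounded, which changed library totals by at most 0.000422%. Genes were kept by filterByExpr (minimum count 10, minimum total 15) of edgeR 4.0.16 under R 4.3.3, leaving 13130. Library sizes were scaled by TMM, and the CPM values include that scaling. The quasi-likelihood model over all 46 libraries held 1 term per sex and dose group plus batch. Benjamini-Hochberg adjustment ran over all tested genes, with 0.05 as the threshold. Standard errors were derived from the same fit, as the size of the log2 ratio divided by the square root of the test's F statistic. Principal components used log2 CPM with a prior count of 2. Shares of counts were compared by exact permutation within batches. The steps were tested on simulated data.

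The libraries and the 46 gene lists were chosen with earlier results of these data known. Named genes were the 12 higher and 12 lower with the smallest p that have a proper symbol, the 2 of smallest p of each list, 3 of each test of a difference, and sentinel genes such as Cyp1a1. Further members of a list were named after their values were seen, some genes are left out for brevity, and a few others are not reported here. A list's entries can exceed its symbols, since several gene IDs share a symbol. No 2 of the 16 libraries held identical values (highest correlation 0.988). Alternatives were DESeq2 1.42.0, its size factors in edgeR, no filter, no batch term, a block for the replicate number, only the groups compared, voom with quality weights (limma 3.58.1), 3 surrogate variables (sva 3.50.0), parts of the batches and leaving out libraries. A covariate for the ribosomal protein share and the fits without vehicle replicates 5 and 7 were added after seeing the data. Figures were drawn with matplotlib 3.10.9.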

Additional observations from a re-analysis of the deposited data

Results flagged for a closer look

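Of 100 groups of 8 libraries checked for 1 library far from the rest, 10 held one. The critical values are set so that chance flags about 1 in 20 independent groups, but these 100 share the same 16 libraries and are not independent. Vehicle replicate 8 had 20743089 counts, the deepest of its group. The ribosomal protein share of 5 mg/kg replicate 7 was 0.620%, and the red cell share of 5 mg/kg replicate 8 was 0.0908%. Replicate 7 at 5 mg/kg was far from its group for Nmd3 (14.5 CPM), Uqcc3 (19.4 CPM), Hmox1 (31.7 CPM) and Cyp2c11 (570 CPM). Vehicle replicate 7 was far from its group for Nmd3 (29.0 CPM). At 5 mg/kg, Il7 was apart in replicate 5 (0.998 CPM) and Cyp7a1 in replicate 1 (299 CPM).

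Of 45 genes checked, 26 had a change at 5 mg/kg that differed between the sexes by the edgeR test (background 7.84% of all tested genes). Higher in males than in females, on the log2 scale, were the changes of Srsf4 (0.83), Atxn2 (0.83), Tcof1 (0.71), Cog1 (0.59), Scaf4 (0.70), Klhl12 (0.58), Heyl (1.17), Paxip1 (0.48), Wwc1 (0.58), Rbbp6 (0.64) and Rin3 (0.71). Lower in males were those of Vamp3 (-0.73), Tiprl (-0.88), Hat1 (-0.78), Bbs5 (-0.87), Nmd3 (-0.91), Amacr (-1.04), Tmem11 (-1.05), Uqcc3 (-1.05) and Cnih1 (-0.61). The same held for Nit2 (-0.70), Ginm1 (-0.76), Thap6 (-0.51), Taf11l1 (-1.45), Il7 (-1.42) and Ccl2 (-2.51). The mitochondrial DNA share differed by 3.30 points and the ribosomal protein share by -0.309 points. The genes were picked partly for their male values, and Hat1, Taf11l1 and Il7 for the smallest p in this same test. Their number is therefore no independent support. The 2 shares were those with the smallest p of 5 library measures in males, so the same limit applies to them.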

How the results depend on the processing

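For 5 mg/kg against vehicle in males, the 0 calls of edgeR became 601 with DESeq2, 574 with voom and 0 to 1 when a library was left out; leaving out libraries gave 1777 to 3646 genes at an unadjusted p under 0.05. For the difference between the sexes, 1030 calls became 1946 with DESeq2, 1749 with voom, 1939 with only the groups compared and 558 with no filter. They became 0 with no batch term, 3 surrogate variables, batch 1 alone, the ribosomal protein covariate, or without vehicle replicates 5 and 7, and ranged from 0 to 1727 as single libraries were left out. For 50 against 5 mg/kg, the 0 calls became 88 with DESeq2, 161 with voom, 1 without vehicle replicates 5 and 7, and 0 to 452 with single libraries left out. The cause was not tested. With the replicate number as a block the 3 counts were 0, 0 and 0 in the same order; the numbers were not taken to pair the samples, since only 2 of 8 same-numbered pairs shared a batch and 4 of the 8 had correlations of deviations between -0.19 and 0.07, the other 4 lying above 0.1. The mitochondrial DNA difference of 2.28 points lay between 2.03 and 2.55 as single libraries were left out. With 3 surrogate variables the ribosomal protein median was 0.02, the sinusoidal endothelial median -0.11, the heat shock median 0.08 and that of PPAR alpha and fatty acid oxidation 0.01. For 5 mg/kg against vehicle edgeR called no named gene, and 92 values of named genes passed under another setting. Since a setting with 0 calls calls no gene, the 26 named genes called for the difference between the sexes were not called there either. Whether depth limits these comparisons was not tested.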
